A study of Mus musculus with 2 samples.

Results

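The enzymes of glycolysis, from hexokinase at the entry of glucose to lactate dehydrogenase at its end, were compared between PB and PB-TERRA mESCs. The group holds 10 of the 18888 genes of the deposited table, namely Hk2, Gpi1, Pfkl, Aldoa, Aldoc, Tpi1, Pgk1, Eno1, Pkm and Ldha, found by gene symbol. These 10 were chosen from the pathway with the expression values of this same comparison known, so their differences are a description and were not tested. All 10 were lower in the PB-TERRA library, from 6.88% lower for Hk2 to 50.1% lower for Aldoc, with a median log2 ratio of -0.34. The median over all 12263 genes past the filter on low values was -0.0044. Across these genes the log2 ratios had an SD of 0.31.

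Glycolysis splits glucose into pyruvate in the cytosol and gains ATP and NADH on the way. In its preparatory part, sugar is phosphorylated and cut into triose phosphates. In its payoff part, the triose phosphates are oxidised and ATP is made, and lactate dehydrogenase then turns pyruvate into lactate and restores NAD+. Pluripotent stem cells are known for a high rate of glycolysis even when oxygen is present, and many of these genes are known targets of the low-oxygen factor HIF-1 and of MYC.

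RNA came from 46C cells, a mouse embryonic stem cell line grown on gelatin, at passages 21 to 24 in both groups. PB mESCs carried the empty PiggyBac (PB) vector. PB-TERRA mESCs carried the same vector with telomeric repeats, from which telomeric repeat-containing RNA (TERRA) with a polyadenylated tail was overexpressed. Each group was sequenced as 1 library, so no spread between cultures can be estimated, and whether each line was a clone or a pool is not given in the sources used here. The level of TERRA itself was not analysed here, so the label of the PB-TERRA library was not checked against it.

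Expression is given in FPKM, reads scaled to gene length and library size. A log2 ratio here is that of FPKM + 0.1, PB-TERRA over PB, a percentage lower is taken on that same scale, and genes with at least 1 FPKM in 1 library or both passed the filter. Depth was worked out from the steps between low FPKM values, which gave a PB library of 24.78 M reads and a PB-TERRA library of 24.94 M reads. Estimated reads are FPKM times depth times the gene length less 115 bases, the offset that the steps gave. The 95% intervals of reads (exact Poisson) and of log2 ratios (exact binomial) cover counting error only, and the spread between cultures comes on top of it.

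The labelled cell type was checked on its markers. All 10 markers of mESCs passed the filter, 8 of them higher and 2 lower in PB-TERRA, and their summed levels were 1578 and 1634 FPKM. Pou5f1 had 744.67 FPKM in PB against 773.31 in PB-TERRA, while Nanog had 186.41 against 173.37. At least 1.2-fold higher were 2 of the 10, Tfcp2l1 and Dppa3, beside 7.39% of all genes, and 0 were lower by that much. The counting interval of the log2 ratio of Dppa3 included 0. Markers of other cells differed between the libraries too. Of 7 primitive endoderm markers 5 passed the filter, all 5 at least 1.2-fold higher in PB-TERRA, beside 7.39% of all genes, although Pdgfra (0.51 and 1 FPKM) passed only through PB-TERRA, where it was higher. The list summed to 10.5 FPKM in PB against 14.65 in PB-TERRA, with none at the floor of 0.01 FPKM. Of 8 fibroblast markers 4 passed the filter, 2 of them at least 1.2-fold higher, of which Col1a2 (0.92 and 1.37 FPKM) passed only through PB-TERRA, and the list summed to 20.22 and 24.25 FPKM, with none at the floor. The 7 neural markers summed to 89.95 and 78.19 FPKM, mostly from Tubb3 and Nes, and Neurog2 was at the floor in PB. Of the 4 neural markers past the filter 2 were higher and 2 lower. Sox1 (1.06 and 1.56 FPKM) was at least 1.2-fold higher and Nes (27.3 and 20.93 FPKM) at least 1.2-fold lower, beside 7.39% and 8.92% of all genes. The part of these cells in the values below was not tested. In bulk RNA, fewer cells of a type and less RNA per cell cannot be told apart.

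In PB mESCs the length-scaled levels of the 10 enzymes spanned from 7.23 FPKM for Aldoc to 1662.48 FPKM for Pkm. Together they summed to 6346 FPKM, 1.28% of all FPKM in that library, and to 5172 FPKM or 1.07% in PB-TERRA. Their estimated reads were 296456 and 244062, a log2 ratio of the reads of -0.29 (95% interval -0.30 to -0.28). The order of the levels was Pkm, Aldoa, Eno1, Ldha, Pgk1, Tpi1, Gpi1, Pfkl, Hk2 and Aldoc in PB. In PB-TERRA it was the same except that Gpi1 stood above Tpi1 and Hk2 above Pfkl. With 1 library a group, no spread is known against which neighbours in this order could be told apart.

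**Figure D1:**
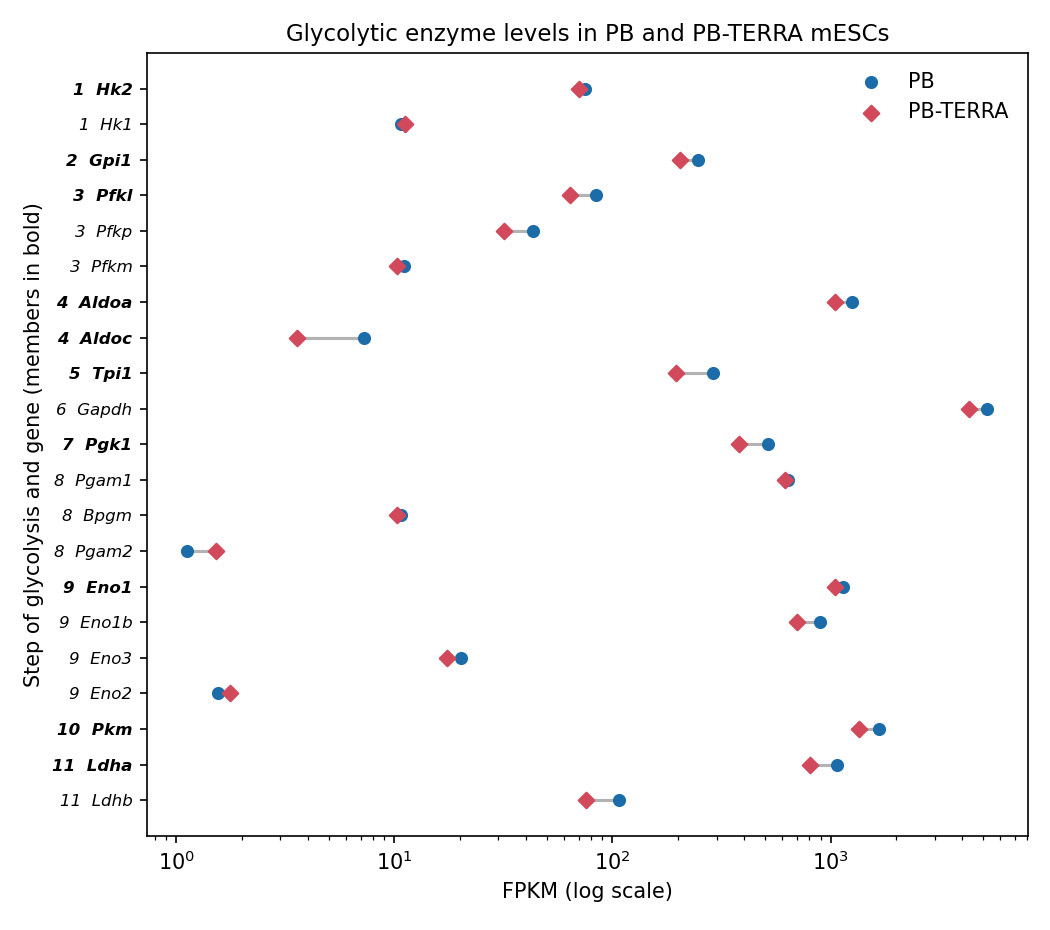
FPKM on a log scale for the 10 members (bold) and the 11 other listed enzymes that passed the filter, in order of the pathway's steps, with circles for the PB library and diamonds for the PB-TERRA library, 1 library each. All 10 members sit lower in PB-TERRA, while Hk1, Pgam2 and Eno2 sit higher.

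The preparatory part begins with hexokinase, which traps glucose in the cell as glucose 6-phosphate. Hk2 had 75.06 FPKM in PB against 69.89 in PB-TERRA, 6.88% lower, the smallest difference of the 10 as deposited. With the trend of length, of level, or of GC content and length taken off, Eno1 alone had the smallest. Its log2 ratios were then -0.09, -0.07 and -0.08, beside -0.14, -0.11 and -0.10 for Hk2. Summed with its near-identical copies, Eno1 had -0.22 as deposited, and no correction was tried on that sum. Gpi1, the isomerase that makes fructose 6-phosphate, had 246.3 FPKM in PB against 203.39 in PB-TERRA, 17.4% lower. Pfkl encodes the liver-type subunit of phosphofructokinase, which catalyses the committed step. Its level was 84.1 FPKM in PB against 63.89 in PB-TERRA, 24.0% lower, with a log2 ratio of -0.40 (95% counting interval -0.45 to -0.35).

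Aldolase cuts fructose 1,6-bisphosphate into a pair of triose phosphates. Aldoa, the widely expressed form, had 1256.67 FPKM in PB against 1049.87 in PB-TERRA, 16.5% lower. Aldoc, the form known from brain, had 7.23 and 3.56 FPKM, and thus the largest difference of the group at a far lower level. Its estimated reads were 460 in PB (95% interval 419 to 504) and 228 in PB-TERRA (199 to 260), and the counting interval of its log2 ratio ran from -1.26 to -0.79. Aldoc supplied 0.572% of the aldolase FPKM in PB and 0.338% in PB-TERRA, so the summed aldolase level had the same log2 ratio of -0.26 as Aldoa alone. Tpi1, which interconverts the triose phosphates, had 287.98 FPKM in PB against 195.64 in PB-TERRA, a log2 ratio of -0.56 (95% counting interval -0.60 to -0.51).

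In the payoff part, Pgk1, the first enzyme of the pathway to make ATP, had 517.81 FPKM in PB against 380.77 in PB-TERRA, 26.5% lower. Eno1, the common enolase, had 1142.14 and 1044.88 FPKM, 8.51% lower. Pkm encodes both muscle-type pyruvate kinases, M1 and M2, which share 1 row here. It was the most abundant of the 10, with 1662.48 FPKM in PB against 1356.25 in PB-TERRA, 18.4% lower. Ldha, the subunit of lactate dehydrogenase that prevails where pyruvate is turned into lactate, had 1066.52 FPKM in PB against 803.45 in PB-TERRA, 24.7% lower, with a log2 ratio of -0.41 (95% counting interval -0.43 to -0.39). The differences were thus unequal along the pathway, small for Hk2 and larger for Tpi1, Pgk1, Ldha and Pfkl, while the log2 ratio of Eno1 was -0.13 alone and -0.22 with its near-identical copies. The counting intervals of the 10 log2 ratios all lay below 0.

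**Figure D2:**
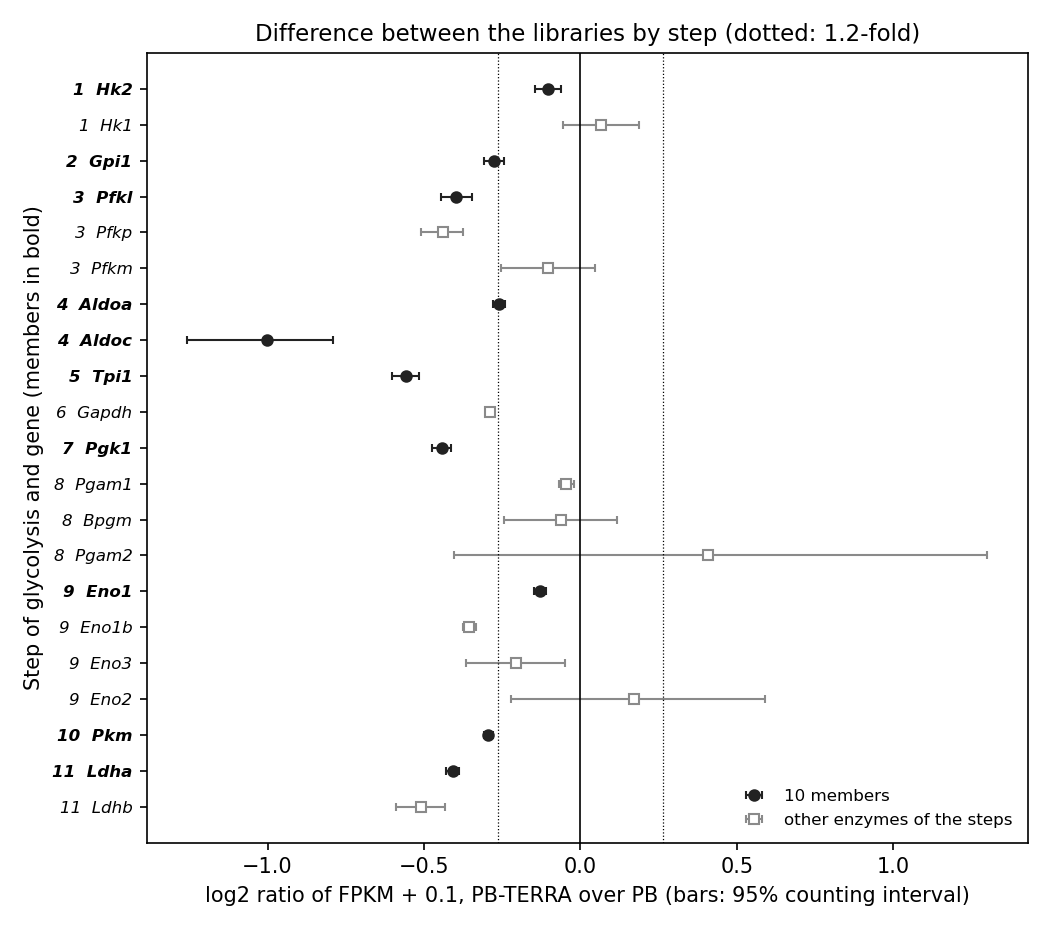
Log2 ratio of FPKM + 0.1, PB-TERRA over PB, by step of glycolysis for the 10 members (filled circles) and the 11 other enzymes past the filter (open squares), with 95% exact binomial intervals that cover counting error only. Members run from 6.88% lower for Hk2 to 50.1% lower for Aldoc, and the dotted lines mark a 1.2-fold difference in either direction.

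A difference of at least 1.2-fold was called, with no test. Of the 10 members 7 were called lower and 0 higher, beside 8.92% of all 12263 genes past the filter called lower and 7.39% called higher. Among the 1734 genes whose mean reached 50 FPKM, a range that holds all members but Aldoc, 4.56% were called lower. Since this comparison chose the members, nothing is read from their share. Just inside the threshold was Gpi1 with 0.826 of its PB level, and just outside was Aldoa with 0.835, the threshold lying at 0.833. Hk2 and Eno1 were the other members outside it. At 1.5-fold only Aldoc was called lower, beside 1.76% of all genes, and Tpi1 was the nearest outside it. Gpi1 and Pkm were no longer called when both libraries were scaled to the same summed FPKM or when the median log2 ratio of genes of similar GC content and length was taken off. Gpi1 was also lost with the length trend alone taken off and Pkm with the level trend taken off, and Aldoa was called in addition when the libraries were scaled to their 75th percentile.

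**Figure D3:**
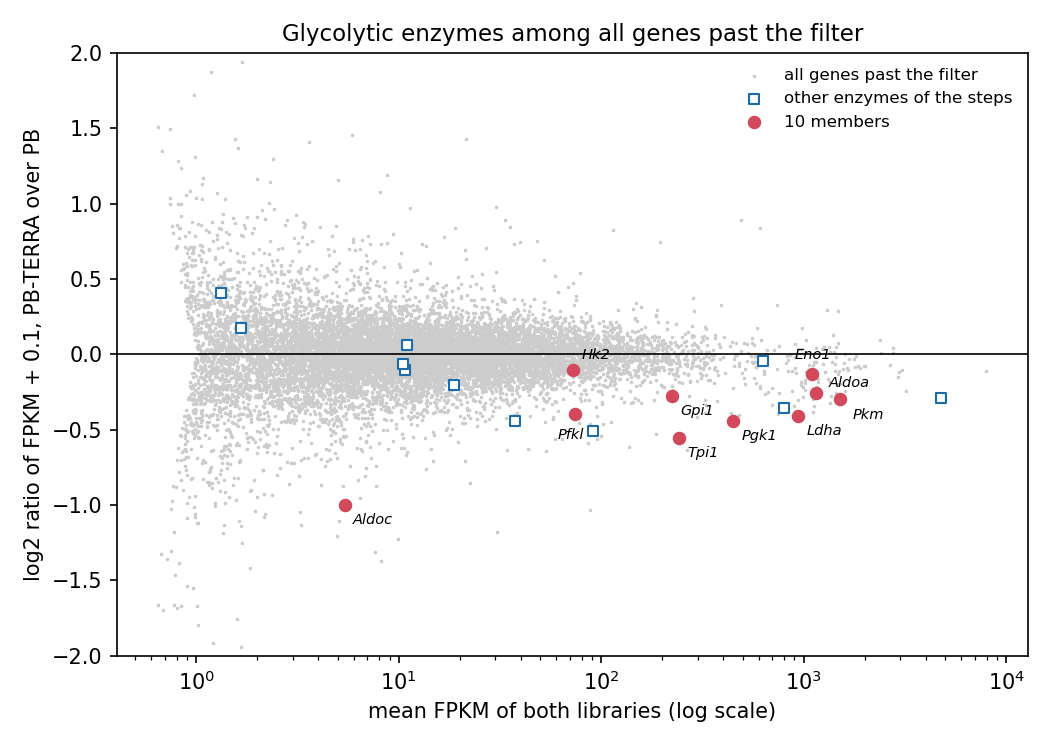
Log2 ratio of FPKM + 0.1 against the mean FPKM of both libraries on a log scale for all genes past the filter (grey), with the 10 members as filled circles and the other enzymes of the steps as open squares. Members lie below 0 at all levels, and 34 genes with a log2 ratio beyond 2 in either direction are not drawn.

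Over all genes the log2 ratio varied with properties of the transcripts. Across 11465 genes past the filter with a known GC content, Spearman's rho was 0.19 with gene length and -0.27 with GC content, although genes of 1 library pair share its depth and base composition and are not replicates. Across the 10 members rho was 0.20 with length and 0.32 with GC content. The members' median log2 ratio was -0.32 with the length trend taken off and -0.30 with that of GC content and length taken off.

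Beyond the shared direction, promoters were compared, since the choice of the members did not use their sequence. The windows are those of RefSeq on GRCm38.p6, each with 250 bases before and 50 after an annotated start. All 10 members matched by gene number, with 17 windows among them. The motif searched was ACGTG on both strands (CACGT on the printed one). It is a form of the core of the hypoxia response element that HIF-1 is known to bind, and other forms were not searched. ACGTG is also part of the E-box CACGTG that MYC is known to bind, which was counted as 1 match. At least 1 match was found for 6 of the 10 members, namely Hk2, Aldoa, Aldoc, Pgk1, Pkm and Ldha, and for 30.2% of 9473 genes past the filter that have a window. By window, 7 of 17 held it among the members and 3148 of 12131 among those genes. The windows of Aldoa that held it overlap, and their match is the same site. The windows of the members are rich in CpG, with a median of 23 CpG against 21 for genes past the filter and 7 for all 27025 genes of the promoter table, of which 21.8% hold the motif. A pair of adjacent TTAGGG repeats, the repeat of telomeres and TERRA, was in 0 of the members' windows and in those of 3 of all genes.
The windows below are printed for the 3 members with the largest log2 differences (Aldoc, Tpi1 and Pgk1), for Hk2, which had the smallest without a correction, and for Ldha, of which 1 window held the most matches. Where a gene has more than 1 window, the one with matches is shown. They read 5′ to 3′ on the gene's strand, and capitals mark the motif on either strand.
Hk2 promoter (chr6:82774405-82774704, - strand): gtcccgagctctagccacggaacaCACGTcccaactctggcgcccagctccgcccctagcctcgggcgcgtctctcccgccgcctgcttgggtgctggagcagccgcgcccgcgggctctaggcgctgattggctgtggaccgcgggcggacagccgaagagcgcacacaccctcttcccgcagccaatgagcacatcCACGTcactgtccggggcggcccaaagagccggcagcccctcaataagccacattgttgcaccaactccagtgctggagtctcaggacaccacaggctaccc
Aldoc promoter (chr11:78322823-78323122, + strand): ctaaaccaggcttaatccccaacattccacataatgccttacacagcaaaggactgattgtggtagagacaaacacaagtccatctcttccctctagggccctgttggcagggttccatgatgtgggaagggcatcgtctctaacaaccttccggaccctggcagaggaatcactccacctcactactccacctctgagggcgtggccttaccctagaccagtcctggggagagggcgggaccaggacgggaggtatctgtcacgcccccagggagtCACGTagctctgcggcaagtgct
Tpi1 promoter (chr6:124814109-124814408, - strand): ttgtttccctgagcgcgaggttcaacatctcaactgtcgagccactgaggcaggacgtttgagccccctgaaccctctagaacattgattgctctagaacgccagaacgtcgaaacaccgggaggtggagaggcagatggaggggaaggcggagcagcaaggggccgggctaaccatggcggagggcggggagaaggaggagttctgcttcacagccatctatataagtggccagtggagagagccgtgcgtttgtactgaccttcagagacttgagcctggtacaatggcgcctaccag
Pgk1 promoter (chrX:106186850-106187149, + strand): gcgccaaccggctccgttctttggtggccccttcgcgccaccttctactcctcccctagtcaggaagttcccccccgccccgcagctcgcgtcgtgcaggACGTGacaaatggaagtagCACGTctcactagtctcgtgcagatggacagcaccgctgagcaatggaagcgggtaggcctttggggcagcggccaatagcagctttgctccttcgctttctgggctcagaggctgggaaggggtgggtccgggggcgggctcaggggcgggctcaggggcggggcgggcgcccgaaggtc
Ldha promoter (chr7:46845554-46845853, + strand): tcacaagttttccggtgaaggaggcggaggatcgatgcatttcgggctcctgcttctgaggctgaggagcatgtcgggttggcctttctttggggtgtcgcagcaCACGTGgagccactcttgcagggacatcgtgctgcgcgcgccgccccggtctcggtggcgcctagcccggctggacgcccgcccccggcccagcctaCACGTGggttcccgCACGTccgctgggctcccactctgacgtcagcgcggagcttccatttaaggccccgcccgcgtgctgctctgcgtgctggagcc
In the printed window of Ldha there were 3 matches, 2 of them within an E-box, and in that of Aldoc there was 1, close after the start. Ldha and Aldoc each have another window, at a different start and not printed, with 0 matches. Pgk1 and Hk2, with 1 window each, had 2 matches each, while Tpi1 had 0. Gpi1, Pfkl and Eno1 also had 0, in windows of this length and for this form of the motif only. A match is a description of letters, and binding was not tested.

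Several members have near-identical copies in the mouse genome, between which the authors' counting could divide reads. Of the 50-base stretches of the annotated Eno1 transcript (GENCODE M21), 58.1% also occur in a transcript of another gene, mostly Eno1b. Eno1b, a gene that differs from Eno1 at few bases, was listed with 898.65 FPKM in PB against 702.91 in PB-TERRA, a log2 ratio of -0.35, while that of Eno1 was -0.13. Summed over Eno1, Eno1b and 3 predicted genes annotated as enolase, which does not depend on how reads were split among them, the log2 ratio of the reads was -0.22 (95% counting interval -0.24 to -0.21). The value of Eno1 alone is therefore uncertain. Stretches shared with another gene made up 68.0% of Pgk1, 34.4% of Pkm, 19.3% of Gpi1, 19.1% of Ldha, 13.9% of Aldoa and 7.51% of Tpi1. Hk2 and Aldoc had 0% and Pfkl 0.0543%. Copies of Pgk1, Gpi1, Ldha and Aldoa that the table lists held few reads, at most 25 in either library for Pgk1, and adding them left each log2 ratio within 0.01 of that of the member alone.

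A list of 19 further enzymes covers isozymes of the same steps and the steps the members leave out. Of these, 18 are in the table and 11 passed the filter, of which 8 were lower and 3 higher in PB-TERRA, and the median of their log2 ratios was -0.10. At least 1.2-fold lower were 4 of the 11, namely Gapdh, Eno1b, Pfkp and Ldhb, and of the 11 Pgam2 alone was called higher, from 22 and 30 estimated reads with a counting interval of -0.40 to 1.30. Of all genes 8.92% were called lower and 7.39% higher. Eno4, an enolase-like gene that the list leaves out and that was named after its value was seen, had 0.93 and 1.23 FPKM, a log2 ratio of 0.37. Gapdh, which makes NADH and is the most abundant enzyme of the pathway, had 5243.56 FPKM in PB against 4295.35 in PB-TERRA, a log2 ratio of -0.29. Gapdh was no longer called when its reads were summed with the 43 other rows annotated as Gapdh, with a log2 ratio of -0.24. This rests on 1 predicted gene, BGI_novel_G000102, without which the sum had a log2 ratio of -0.28 and was called. Pgam1, the mutase between Pgk1 and enolase, had 636.5 and 616.96 FPKM, a log2 ratio of -0.04. Its neighbours in the pathway had -0.44 for Pgk1 and -0.22 for Eno1 with its copies, and 41.5% of the 50-base stretches of Pgam1 also occur in a transcript of another gene.

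The isozymes that share a step with a member did not all have its direction. Hk1 had 10.73 FPKM in PB against 11.23 in PB-TERRA, and its counting interval, -0.06 to 0.19, included 0. Hk2 made up 87.0% of the hexokinase FPKM in PB and 86.0% in PB-TERRA. At the phosphofructokinase step, the platelet-type gene Pfkp had a log2 ratio of -0.44 and the muscle-type gene Pfkm, with 11.07 and 10.3 FPKM, one of -0.10. Pfkl remained the main form with 60.7% and 60.2% of the step. Ldhb, the heart-type subunit, had 107.47 and 75.46 FPKM, a log2 ratio of -0.51 beside -0.41 for Ldha, and Ldha held 90.8% and 91.4% of the step. Eno3, the muscle enolase, had 20.14 and 17.46 FPKM.
Low forms gave no difference that could be detected at this depth. Eno2 had 98 and 112 estimated reads, Pgam2 22 and 30, and Bpgm, the mutase of the red cell, 520 and 501, and all 3 counting intervals included 0. As deposited, the summed level of a step was lower in PB-TERRA for each of the 11 steps. It ranged from a log2 ratio of -0.04 for the phosphoglycerate mutases to -0.56 for triosephosphate isomerase. No other scaling or correction was tried on these sums. The level correction moved the log2 ratio of Eno1 from -0.13 to -0.07, so the direction of the mutase step is not settled.

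Genes that feed and drain the pathway were taken from whole lists of each pathway. Of 9 transporters of sugar, lactate and pyruvate past the filter, 3 were called lower and 0 higher, beside 8.92% and 7.39% of all genes. Slc16a3, the lactate exporter MCT4, had 103.23 FPKM in PB against 68.65 in PB-TERRA, a log2 ratio of -0.59, and Slc2a1, the glucose transporter GLUT1, had 415.03 and 335.3 FPKM, a log2 ratio of -0.31. The third, Slc2a4 (GLUT4), had 1.16 and 0.93 FPKM, with a counting interval that included 0, and passed the filter only through PB, where it was higher. Of 5 genes that make or break fructose 2,6-bisphosphate, the activator of phosphofructokinase, 1 was called lower. This was Pfkfb3, with 10.62 and 8.83 FPKM, right at the threshold with 0.833 of its PB level. Of 12 genes of pyruvate dehydrogenase and its kinases and phosphatases, 1 was called lower and 2 higher, and the median of their log2 ratios was 0.0016. Pdk1, a kinase that inhibits pyruvate dehydrogenase, had 42.74 and 35.33 FPKM. The kinase Pdk2 had 2.4 and 3.41 FPKM and the phosphatase Pdp1 1.73 and 2.16 FPKM.

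Genes of the side branches were counted in the same way. Of 8 genes of the pentose phosphate pathway 0 were called, and the lowest log2 ratio was -0.21. None of 5 hexosamine genes, 5 serine genes and 2 glycerol phosphate genes was called (0 each), with median log2 ratios of 0.05, -0.11 and 0.04. Of 9 genes of glycogen metabolism 4 were called lower, beside 8.92% of all genes, with a median of -0.18. The phosphoglucomutase gene Pgm2 was the lowest at -0.50, with 21.47 and 15.19 FPKM. The others lay near the threshold, namely Gyg with 0.813 of its PB level, Pygm with 0.828, from 85 and 70 estimated reads and with a counting interval that included 0, and Gbe1, named after its value was seen, with 0.833. Of 4 genes of gluconeogenesis, the reverse path, 1 was called lower and 1 higher, beside 8.92% and 7.39% of all genes. The higher one was Fbp2, a fructose bisphosphatase, with 1.61 and 3.23 FPKM and only 47 and 95 estimated reads.
Of 18 enzymes of the citric acid cycle, which takes up the pyruvate that is not turned into lactate, 14 were lower and 4 higher, and 1 was called lower. Their median log2 ratio was -0.05, and the exception, Idh2, had 32.46 and 26.11 FPKM.

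**Figure D4:**
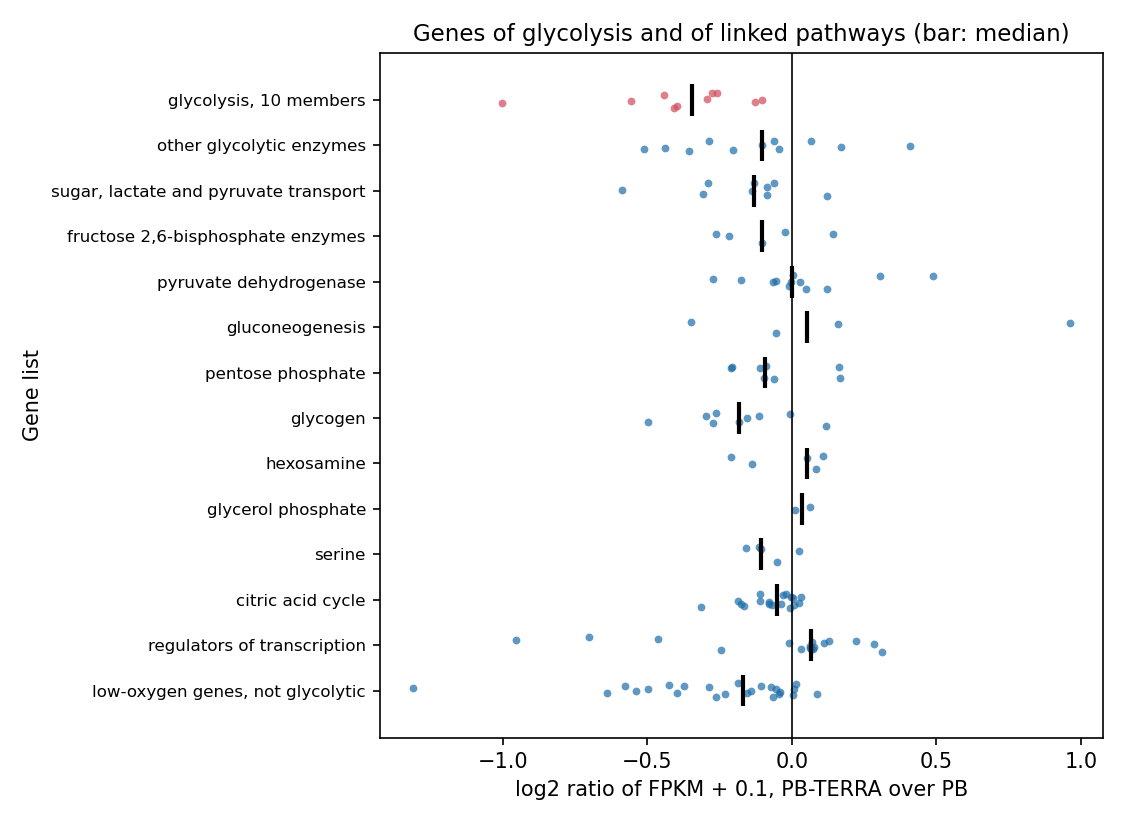
Log2 ratio of FPKM + 0.1, PB-TERRA over PB, for each gene past the filter in the lists of glycolysis and linked pathways, 1 point a gene, with the vertical scatter within a list for visibility only and bars at the medians. The members' median is -0.34, that of the citric acid cycle -0.05 and that of pyruvate dehydrogenase 0.0016.

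Known regulators of glycolytic genes went both ways. Of 17 such genes 12 were higher and 5 lower, and 2 were called higher and 3 lower, beside 7.39% and 8.92% of all genes. The 2 called higher were Myc and the sugar sensor gene Mlxipl (1.63 and 2.05 FPKM), both named after their values were seen. The 3 called lower were Egln3 (8.56 and 4.37 FPKM) and Egln1 (13.29 and 9.61 FPKM), oxygen sensors that mark HIF for decay and are themselves known HIF targets, and the MYC family gene Mycl (4.1 and 2.48 FPKM). Hif1a, named after its value was seen, had 43.73 and 46.11 FPKM, and Myc had 56.25 and 68.55 FPKM. Mycn, the more abundant MYC family gene and also named after its value was seen, had 108.38 and 91.5 FPKM, a log2 ratio of -0.24. Of 24 low-oxygen response genes past the filter that encode no glycolytic enzyme or transporter, 9 were called lower and 0 higher, and the median of their log2 ratios was -0.17. The lowest was Ndufa4l2, a mitochondrial protein of low oxygen, with 10.88 and 4.33 FPKM, and Bnip3, a mitophagy receptor, had 65.25 and 41.82 FPKM. Of the 9, Car12 (1.02 and 0.67 FPKM), named after its value was seen, passed the filter only through PB, where it was higher. Their share called lower stands beside the 8.92% of all genes, and since the list was chosen with results of these data known, it is not independent evidence.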

How the data were processed

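One RNA-seq library was made from 46C mESCs of each condition, PB and PB-TERRA. The submitters' processing notes name HISAT, Cufflinks and the build mm9, without their roles. The authors deposited 1 table with an expression value per gene and library, rounded to 2 decimals with a floor of 0.01. Its header names no unit, and the values the authors deposited were read as FPKM, reads scaled to gene length and library size, because low values times gene length, less 115 bases, step in whole reads. Of these low values 84.7% in PB and 88.6% in PB-TERRA lay within 0.2 of a whole read. The deposited fold changes and p-values of the authors' own comparison were not used.

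Log2 ratios of FPKM + 0.1 were computed with a filter of 1 FPKM in 1 library or both. Calls are ratios of at least 1.2-fold, without a test. Genes named are all members, all enzymes of the steps past the filter and at most 3 of each other list, those with the largest differences. Outside this rule, Pou5f1, Nanog, Tubb3, Neurog2, Hif1a, Myc, Mycn, Mlxipl, Car12, Eno4, Gbe1, Rpl19, Actb and a predicted Gapdh copy were named with their values known. Members, lists and tests were chosen with earlier results of these data known. Lists were matched by symbol. Alternatives were other scalings, pseudocounts, filters and corrections for length, level, and GC content with length (GENCODE M21, GRCm38, 93.5% of genes). Promoters came from RefSeq on GRCm38.p6, a build other than that of the notes, and no coordinate was carried between builds. The recovery of depth, length offset and planted log2 ratios was tested on simulated data, and the other computations were not. Computations ran in Python 3.11.15 with scipy 1.17.1, pandas 2.3.3 and numpy 2.4.6, and plots in matplotlib 3.10.9.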

Additional observations from a re-analysis of the deposited data

How the results depend on the processing

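Each condition has 1 library, so no replicate could be left out. No paired analysis was possible because each condition has 1 library. The log2 ratio of each member was below 0 under every scaling, pseudocount and correction tried, and that of the 5 members with listed copies also when summed with them. The filters cannot change a member's ratio, and the median-of-ratios scaling gave the reported values again. The members' median log2 ratio was -0.34 as reported. It was -0.31 with both libraries scaled to the same summed FPKM, -0.31 with the level trend taken off and -0.30 with that of GC content and length, and it lay between -0.36 and -0.32 under the other 8 settings. The number of members called lower was 7 and ranged from 5 to 8 under other scalings, pseudocounts, filters and corrections, and it was 1 at a 1.5-fold threshold. Of all genes past the filter 2000 were called in either direction, 5315 without a filter and 801 with a mean of at least 5 FPKM. The median of the other enzymes of glycolysis, -0.10, ranged from -0.11 to -0.07 under the 6 settings tried. These were scalings and pseudocounts, and the corrections for length, level and GC content were not tried on it. Aldoc, with the fewest reads of the members, ranged from -1.02 to -0.85. Depth limits the low isozymes most, such as Pgam2 with 22 and 30 estimated reads.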

Other observations

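Gapdh, often used as a reference gene, had a log2 ratio of -0.29, while Rpl19 had -0.06 (1466.58 and 1405.13 FPKM) and Actb 0.08 (1438.39 and 1516.02 FPKM). A difference that is scaled to Gapdh would be read 0.29 higher on the log2 scale in PB-TERRA mESCs than these FPKM give it. Gapdh also has many copies, and 82.5% of the 50-base stretches of its transcript occur in a transcript of another gene.

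The table lists 43 further rows annotated as glyceraldehyde 3-phosphate dehydrogenase. One of them, the predicted gene BGI_novel_G000102 of 448 bases, went the other way from Gapdh, with 120.31 FPKM in PB against 593.95 in PB-TERRA and a log2 ratio of 2.30 from 993 and 4933 estimated reads. It was named after its value was seen. The other 42 rows held 1612 and 1611 reads in sum. Gapdh summed with these 42 rows had a log2 ratio of the reads of -0.28 (95% counting interval -0.30 to -0.27), a sum added after the values were seen. With all 44 rows the log2 ratio of the reads was -0.24 (95% counting interval -0.25 to -0.23).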
